A study of Arabidopsis thaliana with 8 samples.

Results

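Systemic leaves of wild-type Arabidopsis thaliana were compared with control leaves 2 h after wounding, using the arrays whose titles name wild-type systemic or wild-type control leaves. These were 4 of the 8 arrays of the series, 2 per group, and all 22746 probe sets left after removing 64 array controls from 22810 were compared. The plants were Columbia (Col-0), 5 weeks old and grown at 21 °C in short days of 10 h of light. A vernalisation of 2 days at 4 °C was shared by all 8 samples. On each plant some rosette leaves were crushed at the midvein by tweezers. Total RNA was taken from systemic leaves, the usual name for the unwounded leaves of a wounded plant, and from control leaves. The other 4 arrays are systemic and control leaves of dTLec1-1 (dTLec in what follows), a SALK insertion line of the same age, given the same treatment. They entered the estimate of the spread and are given beside the wild type. Which gene the insertion hits is not in the labels, and its level was not checked. The labels do not say whether control leaves came from separate unwounded plants, or whether each replicate is its own plant or pool. The p-values therefore cover nothing beyond the spread of these arrays, which may be technical. In whole leaves, fewer cells of a type and less RNA per cell cannot be told apart.

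Crushing a leaf sends electrical and calcium signals through the veins, and distant leaves then accumulate jasmonic acid. Its isoleucine conjugate brings the receptor COI1 together with JAZ repressors, and the loss of JAZ proteins frees MYC transcription factors. Jasmonate is known in rosette leaves for inducing its own synthesis and breakdown enzymes, defence proteins and glucosinolates, and for slowing growth.

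The array medians of the 8 arrays lay between 5.82 and 5.86 on the log2 scale. The 2 systemic arrays correlated with r 0.9963 and the 2 control arrays with r 0.9919, taken over all probe sets, which are no independent replicates. Of 11 listed mesophyll markers 2 were measured by name, and both were bright and did not pass the test. RCA, encoding Rubisco activase, had 13.73 and 13.69 in systemic leaves, against 13.69 and 13.64 in control leaves. LHCB4.2, encoding an antenna protein of photosystem II, had 13.62 and 13.57 in systemic leaves, against 13.76 and 13.77 in control leaves. The root-hair expansin EXPA7, listed as a root marker, lay between 4.82 and 5.09 on the 4 arrays. FMA for guard cells, TRY for trichomes and AUR1 for dividing cells did not pass either, with log2 fold changes of 0.41, −0.13 and 0.07. The listed markers of phloem, xylem and epidermis, 6, 6 and 8 genes, had no named probe set. The annotation gives 1 gene to 13513 probe sets, several to 503 and none to 8730. With the brightest probe set per gene, 13355 named genes were compared. All folds and log2 fold changes below are systemic over control leaves, and the log2 values on single arrays compare samples for 1 gene, not genes with each other.

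At an adjusted p of 0.05 in limma, 2716 of the probe sets passed, which is 11.9%. Of these, 1344 were higher (5.91%) and 1372 lower (6.03%) in systemic leaves. The increases were larger. Their median log2 fold change was 0.77, against −0.56 for the decreases and −0.02 over all probe sets. A change of at least 2-fold was seen in 619 (2.72%), 488 increases and 131 decreases, at least 4-fold in 143 and 4, and at least 8-fold in 44 and 1. Among named genes 669 were higher (5.01%) and 744 lower (5.57%). The deposited values have the mean difference between replicate numbers removed, so these counts are too high. With the replicate number as a block, 891 probe sets were higher and 705 lower, 7.02% in all, and 820 named genes passed (6.14%). After cyclic loess between arrays 1563 were higher and 1053 lower, so which direction held more calls depended on the scaling. Without systemic replicate 2, 806 passed, without systemic replicate 1, 1341, and without control replicate 2, 1665. Calls in the same direction under all 14 settings that kept every probe set numbered 468 higher and 251 lower. At 51.9% of all probe sets the systemic arrays lay on 1 side of the control arrays, so lack of overlap alone says little here. The 29 named genes described below that did not pass with the block did not pass without systemic replicate 2 either.

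The share of calls varied with the level. In the lowest of 4 equal bins of probe sets, with mean log2 values of 3.28 to 4.67, 1.02% were higher and 0.281% lower. The second bin had 4.96% higher and 4.13% lower, the third 9.0% and 10.7%, and the brightest 8.65% and 9.04%. Changes of at least 2-fold in the lowest bin were 2 increases and 0 decreases. In the second bin they were 93 and 10, in the third 202 and 72, and in the brightest 191 and 49. Increases thus outnumbered decreases among the 2-fold changes in every bin. Few of the dimmest probe sets were called.

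**Figure D1:**
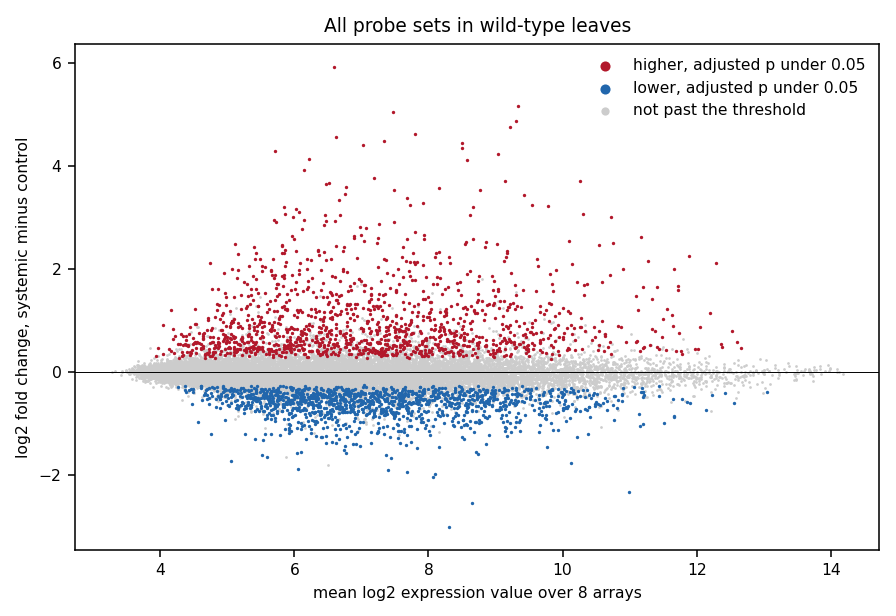
Log2 fold change, systemic over control leaves of the wild type (vertical axis), against the mean log2 value (horizontal axis) for the 22746 probe sets, with higher and lower calls in colour. The largest increase is 5.93 and the largest decrease −3.01, and few calls lie below a mean of 4.67.

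Jasmonate-modifying enzymes were among the largest increases. The lists here and below were chosen with earlier results of these data known, so counts over them are a description. Of all named genes 5.01% were higher. Of 12 listed genes of jasmonate conversion and turnover 5 were measured by name, and all 5 rose, with a median log2 fold change of 3.44. AT2G38240 (JOX4), 1 of the dioxygenases that oxidise jasmonic acid to an inactive form, had 11.99 and 12.15 in systemic leaves, against 8.15 and 6.47 in control leaves. JRG21 (AT3G55970, JOX3), of the same family, had 8.8 and 9.13 in systemic leaves, against 5.35 and 4.29 in control leaves. AT5G05600 (JOX2) had 11.6 and 11.84 in systemic leaves, against 8.71 and 7.85 in control leaves. In all 3 the systemic arrays were close together and high, while control replicate 1 lay above control replicate 2. The log2 fold changes were 4.76 ± 0.55, 4.15 ± 0.40 and 3.44 ± 0.41 (SE, n = 2 arrays per group), with adjusted p of 0.0031, 0.00198 and 0.00339 in limma. The remaining JOX gene, AT3G11180 (JOX1), had 4.83 and 4.58 in systemic leaves, against 4.22 and 4.08 in control leaves, near the lower end of the scale. Its increase of 0.55 ± 0.12 passed (adjusted p = 0.0292) but not with the replicate block (adjusted p = 0.0628), and its adjusted p reached 0.15 when a wild-type array was left out.

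JMT, encoding the methyltransferase that makes methyl jasmonate, had 8.33 and 8.83 in systemic leaves, against 6.09 and 5.36 in control leaves. The groups were well apart, and the log2 fold change was 2.86 ± 0.25 (adjusted p = 0.00159, limma). OPCL1, which activates a jasmonate precursor for its shortening in the peroxisome, was the measured gene of 15 listed for synthesis. It had 8.69 and 9.06 in systemic leaves, against 8.03 and 7.95 in control leaves. Its log2 fold change was 0.88 ± 0.16 (adjusted p = 0.0149, limma), and without systemic replicate 2 it no longer passed (adjusted p = 0.0887).

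The measured signalling and output genes did not pass. MYC3, a transcription factor that JAZ proteins repress, had 7.22 and 7.64 in systemic leaves, against 7.58 and 7.34 in control leaves. For its relative MYC4 the values were 6.34 and 6.19 in systemic leaves, against 6.34 and 6.61 in control leaves. These 2 were the measured genes of 18 in the signalling list. PDF1.2, a plant defensin of jasmonate and ethylene responses, had 6.22 and 5.09 in systemic leaves, against 5.18 and 5.33 in control leaves. The groups overlapped, and systemic replicate 1 alone was high. THI2.1, a thionin, had 5.15 and 5.02 in systemic leaves, against 4.92 and 4.80 in control leaves, a log2 fold change of 0.23 (adjusted p = 0.35, limma).

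**Figure D2:**
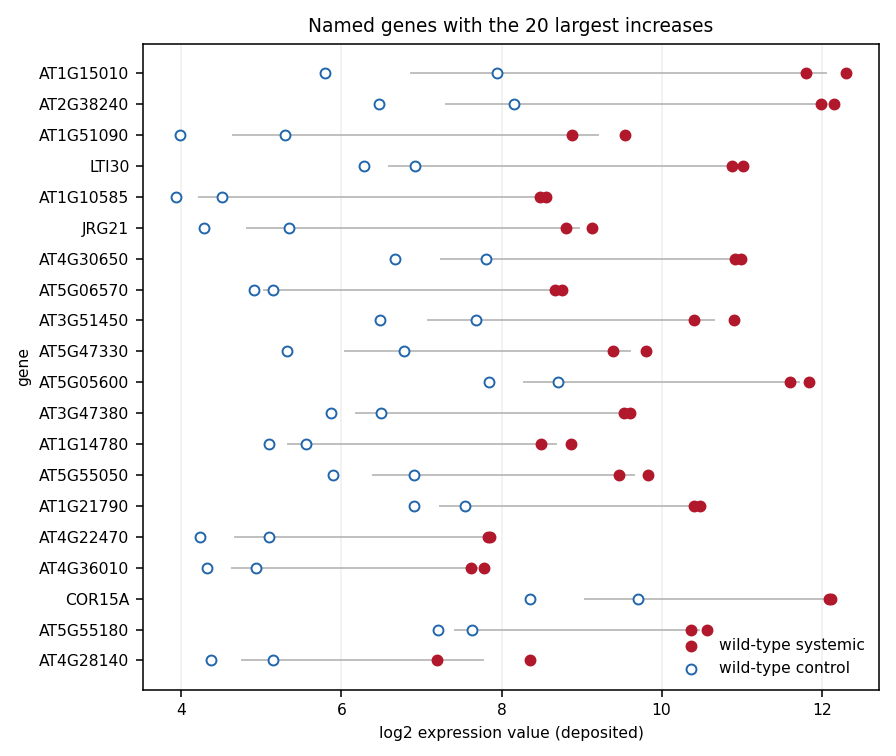
Log2 values on each wild-type array (systemic filled, control open) for the 20 named genes with the largest increases past the threshold, with a grey line between the group means. The 20 genes were chosen with groups that do not overlap, so both systemic arrays lie above both control arrays by the choice. Control replicate 1 lies above control replicate 2 in all 20.

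Cold-regulated and dehydrin genes rose together with these enzymes. Of 16 listed genes of cold and drought protection 4 were measured by name and all 4 rose, with a median log2 fold change of 2.66. LTI30, a dehydrin that binds membranes, had 10.88 and 11.02 in systemic leaves, against 6.92 and 6.28 in control leaves. COR15A, whose product protects chloroplast membranes in freezing, had 12.09 and 12.12 in systemic leaves, against 9.71 and 8.36 in control leaves. Its neighbour and close copy COR15B had 9.98 on both systemic arrays, against 8.57 and 8.22 in control leaves. The systemic arrays were nearly equal in both COR15 genes, while the control arrays of COR15A lay apart. COR47, another dehydrin, had 13.13 and 13.12 in systemic leaves, against 11.36 and 10.37 in control leaves. The log2 fold changes were 4.35 ± 0.29 for LTI30, 3.07 ± 0.44 for COR15A, 1.58 ± 0.14 for COR15B and 2.25 ± 0.35 for COR47 (SE, n = 2 arrays per group). All 4 passed with the replicate block too. COR47 did not pass without systemic replicate 2 (adjusted p = 0.055, limma). In the wider family of 12 cold-regulated, dehydrin and late embryogenesis proteins, 4 rose and 8 did not pass, with a median of 0.25. These 4 include LTI30, COR15A and COR47, already counted above, so the second count adds little. COR15A and COR15B are similar in sequence, and their probe sets may share signal.

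Of 19 listed glucosinolate genes 3 were measured by name, and all 3 rose. BCAT4, which starts the chain elongation of methionine for aliphatic glucosinolates, had 10.51 and 10.73 in systemic leaves, against 9.73 and 9.22 in control leaves. UGT74B1, which glucosylates the thiohydroximate intermediates, had 8.45 and 8.83 in systemic leaves, against 7.95 and 7.66 in control leaves. AT2G31790 (UGT74C1), a related enzyme, had 7.71 and 7.85 in systemic leaves, against 7.09 and 7.37 in control leaves. The groups did not overlap in any of them. They rose by 1.14 ± 0.21, 0.83 ± 0.14 and 0.55 ± 0.14 (adjusted p 0.0144, 0.0122 and 0.0472, limma). With the replicate block AT2G31790 did not pass (adjusted p = 0.0876). Without systemic replicate 2 none of the 3 did, with adjusted p of 0.0961 for BCAT4, 0.0651 for UGT74B1 and 0.23 for AT2G31790.

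GTR1, which imports glucosinolates into cells, had 8.80 and 9.11 in systemic leaves, against 6.85 and 7.06 in control leaves. The groups were well apart, with a log2 fold change of 2.00 ± 0.20 (adjusted p = 0.00222, limma), and it passed with any single array left out. AT2G04400, encoding indole-3-glycerol phosphate synthase of the tryptophan pathway, had 8.92 and 9.03 in systemic leaves, against 7.97 and 7.65 in control leaves. Its log2 fold change was 1.17 ± 0.18 (adjusted p = 0.00829, limma), and without systemic replicate 2 the adjusted p was 0.0607. It was the measured gene of 8 in its list.

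Other enzymes of specialised metabolism moved both ways. Percentages after family counts are the share of the family that passed, to be read beside 10.6% of all named genes. Of 49 UDP-glycosyltransferases, which add sugars to hormones and small metabolites, 8 rose and 2 fell (20.4%). The family's median was 0.03. UGT84A3, which glucosylates hydroxycinnamic acids, had 7.36 and 8.05 in systemic leaves, against 5.98 and 5.46 in control leaves. UGT76E11, a flavonol glycosyltransferase, had 6.45 and 7.25 in systemic leaves, against 5.22 and 4.75 in control leaves. Its neighbour UGT76E12 had 5.66 and 6.56 in systemic leaves, against 4.46 and 3.50 in control leaves. In these 3 genes systemic replicate 2 was the highest array and control replicate 2 the lowest. On the log2 scale they rose by 1.99 ± 0.25, 1.87 ± 0.29 and 2.13 ± 0.51 (adjusted p 0.00401, 0.00833 and 0.0377, limma). With the replicate block UGT76E12 did not pass (adjusted p = 0.0514), and its adjusted p reached 0.196 with 1 wild-type array left out. UGT85A4 and UGT85A5 fell by 0.78 and 0.69. UGT85A4 did not pass without systemic replicate 2 (adjusted p = 0.0504), nor UGT85A5 without either systemic array (adjusted p up to 0.11). Counts for the family ran from 3 to 9 higher and from 0 to 3 lower when a wild-type array was left out.

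Cytochrome P450 enzymes, oxygenases of hormone and defence metabolism, had 1 higher and 6 lower of 24 (29.2%). The other 17 did not pass, and the median was −0.11. The calls, higher and lower, were all in CYP71B genes. The count therefore says little about P450 enzymes outside that subfamily. CYP71B23 had 6.23 and 6.14 in systemic leaves, against 7.70 and 7.56 in control leaves. The related CYP71B24 had 4.89 and 4.92 in systemic leaves, against 5.73 and 5.59 in control leaves. CYP71B26, of the same subfamily, went the other way with 8.45 and 8.69 in systemic leaves, against 7.61 and 7.50 in control leaves. All 3 had tight replicates and groups far apart. The log2 fold changes were −1.44 ± 0.18, −0.76 ± 0.09 and 1.01 ± 0.10 (adjusted p 0.00442, 0.00396 and 0.00225, limma). CYP71B5 fell by 0.70, and did not pass without either systemic array (adjusted p up to 0.0731). The lower calls in the family were 3 with the replicate block and 2 without systemic replicate 2.

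Of 21 beta-glucosidases, which release aglycones from stored glucosides, 2 rose and none fell. This is 9.52% of the family, near the 10.6% of all named genes, so the count is no result about the family. BGLU40 had 10.65 and 10.82 in systemic leaves, against 8.55 and 7.88 in control leaves. BGLU25 had 8.25 and 8.30 in systemic leaves, against 6.71 and 6.56 in control leaves. In both the systemic arrays were high and close together. Their log2 fold changes were 2.52 ± 0.22 and 1.63 ± 0.11 (adjusted p 0.00159 and 0.000845, limma), and both passed with any single array left out.

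Of 4 measured jacalin-related lectins, sugar-binding proteins of which several accompany myrosinases, 2 rose. JAL23 had 6.26 and 6.34 in systemic leaves, against 4.95 and 4.65 in control leaves. JAL34 had 6.80 and 7.94 in systemic leaves, against 6.01 and 4.71 in control leaves. The JAL23 arrays were tight, and those of JAL34 lay more than 1 log2 unit apart within each group. They differed by 1.5 ± 0.12 and 2.01 ± 0.46 (adjusted p 0.00119 and 0.0341, limma). JAL34 did not pass without systemic replicate 2 or control replicate 2, with adjusted p up to 0.163. LCR69, a defensin-like peptide, had 9.50 and 9.73 in systemic leaves, against 8.46 and 7.98 in control leaves. Its log2 fold change was 1.39 ± 0.16 (adjusted p = 0.00343, limma), and the other 16 of 17 cysteine-rich defensin-like peptides and thionins did not pass.

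Serine carboxypeptidase-like proteins, a family of peptidases and acyltransferases, had 1 higher and 4 lower of 29 (17.2%), with a median of −0.06. SCPL34 had 7.76 and 7.36 in systemic leaves, against 8.98 and 9.04 in control leaves. The groups were far apart, and the log2 fold change was −1.45 ± 0.17 (adjusted p = 0.0031, limma). In the opposite direction, scpl48 had 9.20 and 9.51 in systemic leaves, against 8.58 and 8.02 in control leaves. Its log2 fold change was 1.05 ± 0.20, and without systemic replicate 2 it did not pass (adjusted p = 0.108). SCPL45 and SCPL27 fell by 0.94 and 0.71, and neither passed with a systemic array left out (adjusted p up to 0.132 and 0.14). Of 13 glutathione S-transferases, which conjugate glutathione to reactive compounds, GSTU27 had 7.67 and 7.32 in systemic leaves, against 8.46 and 8.60 in control leaves. It fell by 1.04 and passed in every setting with 1 array left out. GSTU15 rose by 0.38 and GSTL3 fell by 0.29, and neither passed with the replicate block (adjusted p 0.108 and 0.165) or after cyclic loess. The calls were 23.1% of this family, and its largest increase, 0.84, did not pass.

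Many of the largest increases lay outside the lists. AT1G15010 had 11.80 and 12.30 in systemic leaves, against 7.95 and 5.80 in control leaves, and its increase of 36.1-fold was the largest among named genes. Its 2 control arrays were more than 2 log2 units apart, and both stayed far below the systemic arrays. AT1G10585, encoding a bHLH transcription factor, had 8.48 and 8.55 in systemic leaves, against 4.51 and 3.94 in control leaves. AT4G28140, encoding an AP2/ERF transcription factor, had 7.19 and 8.35 in systemic leaves, against 5.14 and 4.37 in control leaves. The bHLH gene was tight on the systemic arrays and the AP2/ERF gene was not. Log2 fold changes were 4.29 ± 0.27 for AT1G10585 and 3.01 ± 0.40 for AT4G28140 (adjusted p 0.000845 and 0.00504, limma). AT1G51090, whose product has a heavy-metal-associated domain, had 8.88 and 9.54 in systemic leaves, against 5.29 and 3.98 in control leaves, a log2 fold change of 4.57 ± 0.42.

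The other large increases were in genes of varied function. AT5G06570, encoding a hydrolase, had 8.67 and 8.75 in systemic leaves, against 5.14 and 4.91 in control leaves. AT5G47330, another hydrolase gene, had 9.39 and 9.81 in systemic leaves, against 6.78 and 5.32 in control leaves. AT5G55050, encoding a GDSL-type lipase, had 9.83 and 9.47 in systemic leaves, against 6.91 and 5.90 in control leaves. All 3 had groups well apart, with log2 fold changes of 3.68 ± 0.34, 3.55 ± 0.45 and 3.24 ± 0.41. AT3G51450, encoding a strictosidine synthase-like protein, had 10.41 and 10.91 in systemic leaves, against 7.68 and 6.48 in control leaves. AT5G55180, a glycosyl hydrolase of family 17, the family of the beta-1,3-glucanases, had 10.57 and 10.37 in systemic leaves, against 7.63 and 7.21 in control leaves. AT4G36010, encoding a thaumatin-like protein, had 7.62 and 7.78 in systemic leaves, against 4.93 and 4.32 in control leaves. The log2 fold changes of these genes were 3.58 ± 0.42, 3.05 ± 0.22 and 3.07 ± 0.37. AT3G47380 (3.39), which encodes a pectin methylesterase inhibitor-like protein, AT1G14780 (3.35), which encodes a MACPF-domain protein, AT1G21790 (3.21), with a TLC domain, AT4G22470 (3.17), a proline-rich protein of the lipid-transfer type, and AT4G30650 (3.71) complete the 20 largest increases.

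The 20 were chosen with groups that do not overlap, so the lack of overlap in them is no result. Across the 20, log2 fold changes ran from 3.01 to 5.17, or 8.07-fold to 36.1-fold, with adjusted p between 0.000845 and 0.00665 in limma. All 20 passed with the replicate block, with the largest adjusted p at 0.00952, and with any single array left out, where it reached 0.0464. Control replicate 1 was above control replicate 2 in 20 of the 20, by a median of 0.86 on the log2 scale. It was above in 971 of the 1344 higher calls (72.2%), in 42.4% of the lower calls and at 51.0% of all probe sets. Control replicate 1 thus lay nearer to the systemic arrays in all 20 genes. Systemic replicate 2 was above systemic replicate 1 in 16 of the 20, in 949 of the 1344 higher calls and at 10558 of all 22746 probe sets. With 1 array left out, the log2 fold change of AT1G15010 ran from 4.1 to 6.25. The part of these array differences in the fold changes was not tested.

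Transport genes that passed were on the higher side in 2 families. Of 14 SWEET proteins, which move sugars across membranes along their gradient, 3 rose and none fell (21.4%), with a median of 0.11. SWEET4 had 7.88 and 8.32 in systemic leaves, against 6.14 and 6.17 in control leaves. SWEET2, a vacuolar sugar transporter, had 9.04 and 8.94 in systemic leaves, against 8.38 and 8.35 in control leaves. Groups were apart in both, with log2 fold changes of 1.95 ± 0.19 and 0.62 ± 0.10 (adjusted p 0.00205 and 0.00847, limma). SWEET2 did not pass without systemic replicate 1 (adjusted p = 0.054). SWEET17, a vacuolar fructose transporter, rose by 0.43 and did not pass with the replicate block (adjusted p = 0.075) or without either systemic array (adjusted p up to 0.156). Of 11 members of the nitrate and peptide transporter family 3 rose and none fell (27.3%), with a median of 0.21. Besides GTR1 these were AT2G26690, with a log2 fold change of 0.95 ± 0.11, and AT1G59740, with 0.56 ± 0.10. AT1G59740 did not pass without systemic replicate 2 or control replicate 2 (adjusted p up to 0.0949). Of 7 cation/proton exchangers none passed, and 1 had an unadjusted p under 0.05 in limma.

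**Figure D3:**
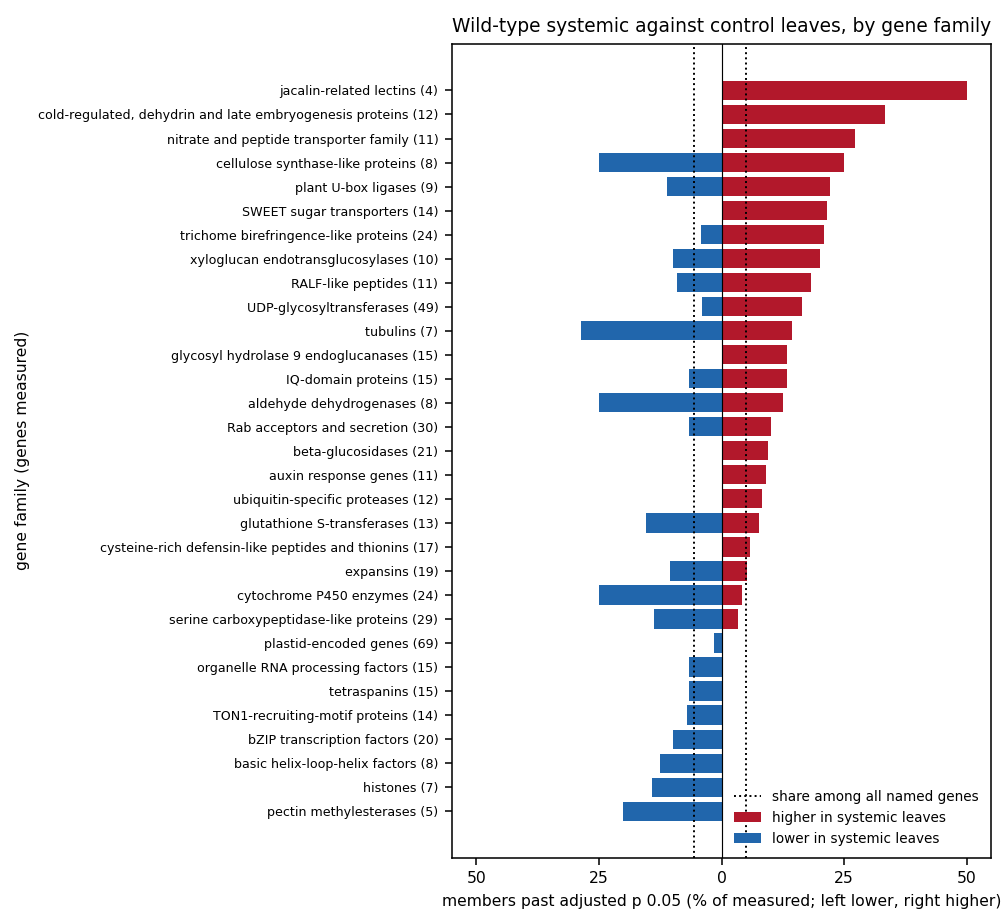
Share of measured members past the threshold in each gene family, higher calls to the right and lower calls to the left in percent, beside the shares among all named genes (5.01% higher, 5.57% lower). UDP-glycosyltransferases had 8 higher and 2 lower of 49, and cytochrome P450 enzymes 1 higher and 6 lower of 24. The P450 calls were all in CYP71B genes.

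Cell-wall and growth genes changed in both directions, often within 1 family. Of 19 expansins, which loosen cell walls, 1 rose and 2 fell (15.8%). EXPA8 had 9.13 and 8.36 in systemic leaves, against 10.15 and 10.86 in control leaves. EXPA16 had 6.15 and 6.89 in systemic leaves, against 5.30 and 5.28 in control leaves. EXPB1 had 5.23 and 5.07 in systemic leaves, against 5.82 and 6.25 in control leaves. Groups did not overlap in these 3, but the arrays within each group of EXPA8 lay far apart. EXPA8, EXPA16 and EXPB1 had log2 fold changes of −1.76 ± 0.33, 1.23 ± 0.28 and −0.88 ± 0.19 (adjusted p 0.0157, 0.0325 and 0.025, limma). Without systemic replicate 2 none of the 3 passed, with adjusted p of 0.0866 for EXPA8, 0.148 for EXPA16 and 0.14 for EXPB1.

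Of 10 xyloglucan endotransglucosylases, which cut and rejoin xyloglucan, 2 rose and 1 fell. XTH18 had 6.45 and 6.25 in systemic leaves, against 4.98 and 4.64 in control leaves. XTH32 had 8.90 and 8.31 in systemic leaves, against 7.2 and 7.58 in control leaves. XTH33 had 4.94 and 4.61 in systemic leaves, against 6.73 and 6.10 in control leaves. The 3 genes were each clearly separated between the groups, and their log2 fold changes were 1.54 ± 0.17, 1.22 ± 0.21 and −1.64 ± 0.27 (adjusted p 0.00249, 0.0132 and 0.00999, limma). XTH33 did not pass without systemic replicate 2 (adjusted p = 0.0707). GH9C2, an endoglucanase, had 9.06 and 8.71 in systemic leaves, against 6.75 and 7.33 in control leaves, a log2 fold change of 1.84 ± 0.21. It and GH9B8 (0.66) were the 2 that rose of 15 endoglucanases of glycosyl hydrolase family 9 (13.3%). GH9B8 did not pass without either systemic array (adjusted p up to 0.124).

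Pectate lyases, which cut demethylated pectin, were listed after 1 of them had been seen among the largest decreases, so their counts are a description. Of 23 measured, 2 rose and 2 fell (17.4%), and the median was 0.01. AT3G07010 had 8.06 and 7.57 in systemic leaves, against 9.20 and 9.61 in control leaves. AT4G24780 had 8.91 and 9.10 in systemic leaves, against 10.02 and 10.34 in control leaves. AT3G09540 had 8.17 and 8.25 in systemic leaves, against 5.79 and 5.41 in control leaves. The first pair was low and the last gene high on both systemic arrays, with log2 fold changes of −1.59 ± 0.19, −1.17 ± 0.17 and 2.61 ± 0.25 (adjusted p 0.00375, 0.00747 and 0.00188, limma). All 3 passed with any single array left out. AT3G01270 rose by 0.35 but not with the replicate block (adjusted p = 0.0942), and its adjusted p reached 0.136 with 1 wild-type array left out. Without control replicate 1 AT1G67750 (−0.69), AT3G53190 (−0.63) and AT5G63180 (−0.56) passed as well, so that 5 were lower. With all arrays their adjusted p were 0.109, 0.147 and 0.215.

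Of 24 trichome birefringence-like proteins, a family that acetylates wall polysaccharides, 5 rose and 1 fell, with a median of 0.08. TBL26 had 7.30 and 7.87 in systemic leaves, against 5.46 and 4.95 in control leaves. TBL41 had 6.0 and 5.98 in systemic leaves, against 4.92 and 5.04 in control leaves. TBL37 had 10.00 and 10.48 in systemic leaves, against 9.36 and 8.68 in control leaves. TBL41 was tight in both groups, while TBL37 spread more on the control arrays than TBL26. Their log2 fold changes were 2.38 ± 0.23, 1.01 ± 0.08 and 1.22 ± 0.23 (adjusted p 0.00188, 0.0013 and 0.0175, limma). TBL37 did not pass without systemic replicate 2 (adjusted p = 0.105). AT2G31110 fell by 0.83 and did not pass with the replicate block (adjusted p = 0.0521), nor without control replicate 1, control replicate 2 or systemic replicate 2 (adjusted p up to 0.155). Of 8 cellulose synthase-like proteins 2 rose and 2 fell, by 0.34 to 0.71 in size, and none of the 4 passed with the replicate block. Their adjusted p reached 0.224 in CSLD2, 0.145 in CSLA01, 0.132 in ATCSLC08 and 0.16 in CSLC04 with 1 array left out. PMEPCRF, 1 of 5 pectin methylesterases, fell by 0.54 and did not pass with the block (adjusted p = 0.0698) or with systemic replicate 2 or either control array left out (adjusted p up to 0.186).

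Microtubule-related genes were among those that moved in both directions. IQD proteins bind calmodulin, and several of them sit on microtubules. IQD23 had 7.82 and 7.78 in systemic leaves, against 5.56 and 5.32 in control leaves. IQD22 had 9.45 and 9.78 in systemic leaves, against 8.51 and 7.92 in control leaves. IQD28 had 6.58 and 6.38 in systemic leaves, against 8.25 and 7.92 in control leaves. Each was separated between the groups, with log2 fold changes of 2.36 ± 0.16, 1.40 ± 0.20 and −1.61 ± 0.23 (adjusted p 0.000845, 0.00628 and 0.00692, limma). The other 12 of 15 did not pass, and the family's median was −0.13. IQD28 did not pass without systemic replicate 2 (adjusted p = 0.0528), and without control replicate 1 there were 4 lower IQD genes in place of 1. TUB5, a beta-tubulin, had 9.61 and 9.20 in systemic leaves, against 10.29 and 10.42 in control leaves. It fell by 0.95, and did not pass without systemic replicate 2 (adjusted p = 0.0579). Of the 7 tubulins 42.9% passed. TUB6 also fell, by 0.49, and TUB7 rose by 0.37, and neither passed with the replicate block (adjusted p 0.053 and 0.121). The linker histone gene HON4 fell by 0.62, TRM19 by 0.75 and the tetraspanin gene TET10 by 0.69, each the 1 that passed among 7 histones, 14 TRM proteins and 15 tetraspanins. TRM19 did not pass with the block (adjusted p = 0.0622). Without systemic replicate 2 none of the 3 passed (adjusted p 0.097 for HON4, 0.15 for TRM19 and 0.065 for TET10).

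Among signalling genes, GH3.3, which conjugates auxin to amino acids, had 8.12 and 8.23 in systemic leaves, against 6.68 and 7.0 in control leaves, a log2 fold change of 1.33 ± 0.20 (adjusted p = 0.00817, limma). It was the 1 of 11 auxin response genes that passed, and without systemic replicate 2 its adjusted p was 0.059. Of 11 RALF-like signalling peptides RALFL31 (0.76) and RALFL34 (0.36) rose and RALFL22 (−0.86) fell, 27.3% of the family, against 10.6% of all named genes. RALFL34 and RALFL22 did not pass with the replicate block (adjusted p 0.129 and 0.0589), and RALFL31 did not without systemic replicate 2 (adjusted p = 0.0985). PUB43, encoding a U-box ubiquitin ligase, had 7.28 and 7.30 in systemic leaves, against 6.31 and 6.04 in control leaves. It rose by 1.11 ± 0.11 (adjusted p = 0.00198, limma) with groups well apart. Of the same 9 ligases, of which 33.3% passed, PUB23 rose by 0.89 and PUB24 fell by 0.27, and neither passed with the block (adjusted p 0.0734 and 0.176). The largest increase among the 9, 1.28, did not pass. Centring each array or cyclic loess took away the call of PUB24. UBP23 (0.84) was the 1 of 12 ubiquitin-specific proteases that passed, and did not without control replicate 1 or systemic replicate 2 (adjusted p up to 0.13).

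Among 30 proteins of Rab membrane traffic and secretion 3 rose and 2 fell (16.7%). PRA1.B4, a Rab acceptor of the endomembranes, had 8.02 and 8.05 in systemic leaves, against 6.87 and 6.71 in control leaves. PRA1.F1, of the same family, had 6.31 and 6.13 in systemic leaves, against 6.92 and 6.91 in control leaves. Both had tight arrays and kept their call with any single array left out, with log2 fold changes of 1.24 ± 0.12 and −0.70 ± 0.09 (adjusted p 0.00194 and 0.00538, limma). PRA1.B6 (0.49), VPS20.1 (0.43) and VPS9B (−0.44) passed, but not with the replicate block (adjusted p 0.0817, 0.0822 and 0.0689). Of 8 aldehyde dehydrogenases, which remove reactive aldehydes, 37.5% passed. ALDH7B4 rose by 1.28 and ALDH2C4 and ALDH11A3 fell by 0.58 and 0.37. None of the 3 passed with the block (adjusted p 0.0592, 0.0676 and 0.115), and each lost its call without systemic replicate 2 (adjusted p 0.205, 0.161 and 0.139).

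Transcription factors were grouped by family symbols in the annotation, which leave out members named otherwise, such as AT1G10585 and AT4G28140, which rose. Of 20 factors named by a bZIP symbol 2 fell and none rose (10.0%, near the share among all named genes). BZIP61 had 7.81 and 7.83 in systemic leaves, against 8.80 and 9.36 in control leaves. Its log2 fold change was −1.26 ± 0.27 (adjusted p = 0.0259, limma), and it did not pass with either systemic array or control replicate 2 left out (adjusted p up to 0.12). BZIP24 fell by 0.36 and bHLH121 by 0.52, and neither passed with the block (adjusted p 0.113 and 0.0677). bHLH121 was the 1 of 8 factors named by a bHLH symbol that passed, and that family's median was −0.19. Of 6 WRKY factors and 42 AGAMOUS-like factors none passed in limma, and 2 and 3 had an unadjusted p under 0.05. After cyclic loess 1 bZIP factor was higher, and after centring 1 WRKY factor was lower.

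The chloroplast lists held few calls, and nuclear genes of chloroplast proteins outside these lists were not counted. Of 69 plastid-encoded genes 1 fell, with a median of −0.02 over all 69. This was rbcL, encoding the large subunit of Rubisco, which had 8.06 and 8.48 in systemic leaves, against 9.02 and 9.20 in control leaves. Its log2 fold change was −0.84 ± 0.19 (adjusted p = 0.0292, limma), and it did not pass without systemic replicate 1 or control replicate 2 (adjusted p up to 0.138). Plastid transcripts carry no long poly(A) tail, which the standard labelling of these arrays uses, so their values are a weak measure. Of 15 organelle RNA processing factors CRR28 fell by 0.35, not with the block (adjusted p = 0.095), and the median was −0.25. In limma 7 of the 15 had an unadjusted p under 0.05. The largest decrease among them, −0.8, did not pass. Of 5 light-harvesting proteins none passed, 1 had an unadjusted p under 0.05 in limma, and their median was −0.12.

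None passed in 8 glutamate receptor-like channels, a family with some members that carry wound signals between leaves, nor in 8 calmodulin-like proteins, which sense calcium. Their median log2 fold changes were −0.07 and −0.03, with ranges of −0.25 to 0.43 and −0.63 to 0.59, and 2 of each had an unadjusted p under 0.05 in limma. After centring each array 1 member of each passed as higher, and after cyclic loess 1 channel did. Likewise no call was made among 10 thioredoxins and glutaredoxins, 13 ubiquitin-conjugating enzymes, 11 autophagy proteins, 7 subtilases, 6 response regulators, 6 CLE peptides and 4 SKU5-similar proteins. In limma the unadjusted p was under 0.05 in 4 autophagy proteins, in 1 each of the conjugating enzymes, response regulators and SKU5-similar proteins, and in none of the others. Cyclic loess gave 1 higher autophagy protein. DFR and UGT78D2, enzymes of anthocyanin synthesis and flavonol glycosylation, had log2 fold changes of 0.02 and 0.14, and GRX480, a glutaredoxin induced by salicylate, had 0.42. In limma their adjusted p were 0.941, 0.303 and 0.341. A p above the threshold does not show that these genes did not differ.

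The largest decreases were smaller than the largest increases and included several regulators and receptors. AT5G28630 had 6.63 and 6.5 in systemic leaves, against 8.16 and 8.76 in control leaves, the largest decrease among named genes at −1.90 ± 0.20. AT3G13672 (SINA2), related to SINA ubiquitin ligases, had 4.57 and 4.37 in systemic leaves, against 6.45 and 5.95 in control leaves. AT5G59680, encoding a leucine-rich repeat receptor kinase, had 4.86 and 4.54 in systemic leaves, against 5.98 and 6.66 in control leaves. The largest decreases described here were chosen with groups that do not overlap, so the lack of overlap in them is no result. AT1G66180, encoding an aspartyl protease, had 8.11 and 8.02 in systemic leaves, against 9.46 on both control arrays. AT2G28200, encoding a C2H2 zinc finger protein, had 5.39 and 5.31 in systemic leaves, against 7.0 and 6.79 in control leaves. AT5G44680, of a DNA glycosylase family, had 9.07 and 8.80 in systemic leaves, against 10.22 and 10.57 in control leaves. The log2 fold changes of these last 3 genes were −1.40 ± 0.07, −1.55 ± 0.15 and −1.46 ± 0.19 (adjusted p 0.000601, 0.00213 and 0.00494, limma).

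DRT100, a leucine-rich repeat protein, had 7.82 and 7.30 in systemic leaves, against 8.69 and 9.55 in control leaves. AT3G13690, encoding a protein kinase, had 6.79 and 6.70 in systemic leaves, against 7.88 and 8.35 in control leaves. AT1G70740, also a protein kinase gene, had 4.84 and 4.75 in systemic leaves, against 6.04 and 6.15 in control leaves. The control arrays of DRT100 lay far apart and those of AT1G70740 close together. Their log2 fold changes were −1.55 ± 0.28, −1.37 ± 0.26 and −1.30 ± 0.09. The 20 largest decreases also held EXPA8, XTH33, IQD28, SCPL34, CYP71B23 and AT3G07010, described above, and AT1G67910 (−1.68), AT3G13000 (−1.57), AT1G05575 (−1.57), AT2G36430 (−1.40) and ZCF37 (−1.37). They ran from −1.90 to −1.30, or 3.73-fold to 2.46-fold lower, with adjusted p of 0.000601 to 0.0179 in limma. With any single array left out 14 of the 20 passed. Of the other 6, DRT100 lost its call without systemic replicate 2 (adjusted p = 0.0946), and AT3G13000 and AT3G13690 without systemic replicate 1, systemic replicate 2 or control replicate 2 (adjusted p up to 0.111 and 0.097). Without systemic replicate 2, EXPA8, XTH33 and IQD28 had adjusted p of 0.0866, 0.0707 and 0.0528.

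**Figure D4:**
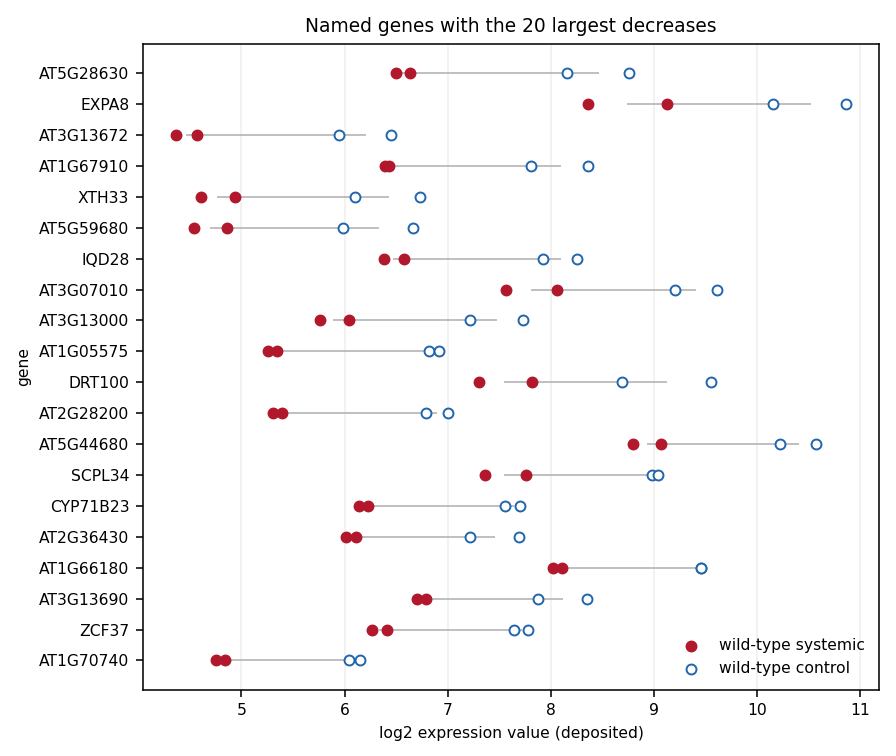
Log2 values on each wild-type array (systemic filled, control open) for the 20 named genes with the largest decreases past the threshold, with a grey line between the group means. The 20 genes were chosen with groups that do not overlap, so both systemic arrays lie below both control arrays by the choice. Systemic replicate 2 lies below systemic replicate 1 in all 20. It lies above in 546 of all 1372 lower calls and at 10558 of all 22746 probe sets.

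The same comparison in dTLec made far fewer calls, 152 probe sets (0.668%), and the responses of the genotypes are set side by side here. The 1344 probe sets that rose in the wild type had medians of 0.77 there, against 0.34 in dTLec. The 1372 that fell had −0.56 in the wild type, against −0.23 in dTLec. The probe sets were chosen on the wild type, so a smaller value in dTLec follows in part from the choice. Of the 20 largest increases 12 also passed in dTLec, with log2 fold changes between 1.77 and 3.73 over the 20. LTI30 had 4.35 in the wild type, against 3.73 in dTLec, and AT2G38240 (JOX4) had 4.76 in the wild type, against 3.3 in dTLec. TBL26 had 2.38 in the wild type, against 0.21 in dTLec. For GTR1 the wild type had 2.00, against 0.63 in dTLec, and for CYP71B26 the wild type had 1.01, against −0.04 in dTLec. Of the 20 largest decreases 2 passed in dTLec, where they ran from −1.33 to −0.19.

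Few differences between the responses could be shown. In the test of the difference, wild-type response minus dTLec response, 1 of 22746 probe sets passed (0.0044%), and none did with the replicate block, while 2553 and 1481 had an unadjusted p under 0.05 in limma. The smallest adjusted p of the difference was 0.13 among the 20 largest increases and 0.0764 among the 20 largest decreases. For TBL26 the difference was 2.17 ± 0.32, for GTR1 1.37 ± 0.29 and for TBL41 0.69 ± 0.11 on the log2 scale (SE), without passing. A difference between the genotypes in these genes was therefore not shown, and neither was its absence.

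**Figure D5:**
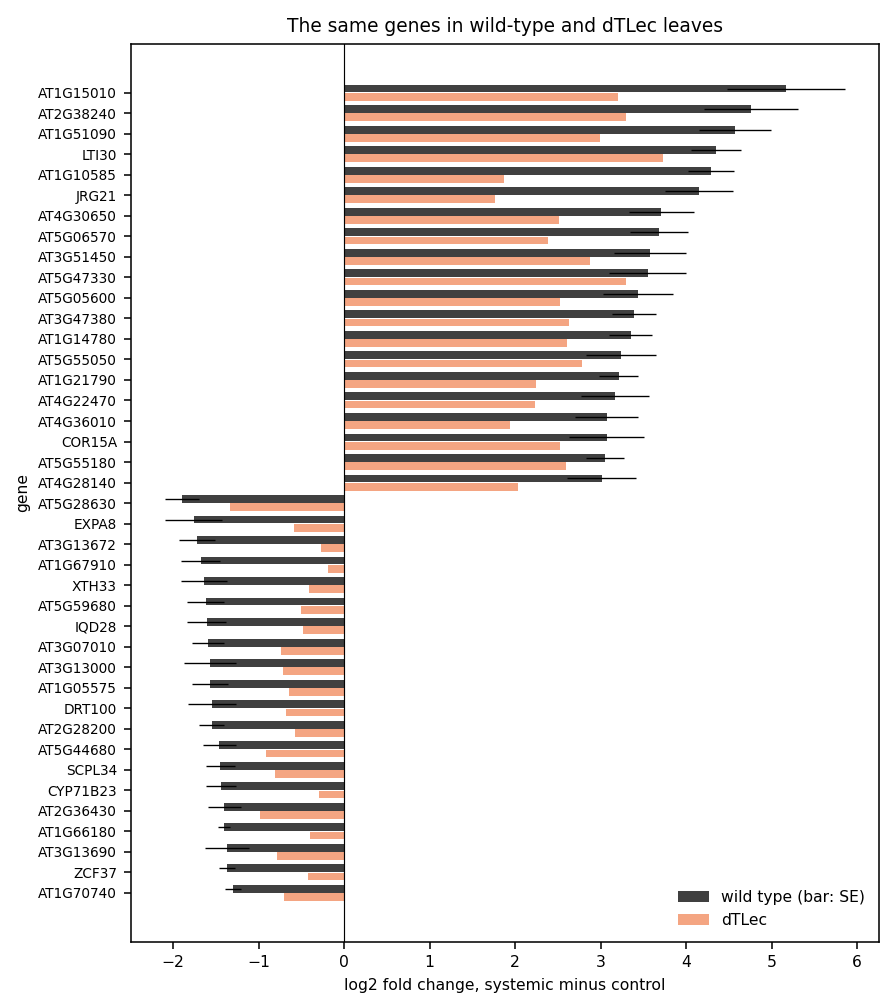
Log2 fold change, systemic over control leaves (horizontal axis), in the wild type (dark bars, with the SE) and in dTLec (light bars) for the named genes with the 20 largest increases and the 20 largest decreases in the wild type. The genes were chosen on the wild-type values; the increases run from 3.01 to 5.17 in the wild type and from 1.77 to 3.73 in dTLec, and the difference passed in none of them.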

How the data were processed

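RNA was hybridised to Affymetrix ATH1 arrays, 1 per sample, per the labels' protocols. Each deposited value is a log2 expression level of a probe set, processed by the authors. Per the submitters' processing notes RMA and Partek were used, with version and settings not given in the sources used here. Normalization between arrays removes a shift shared by all transcripts. Arrays have no read depth, and their number limits the precision. The 64 array controls were left out. Genes were named through the platform annotation and the TAIR10.1 gene table, which held 13436 of the 13513 probe sets with 1 gene (13286 loci). Coordinates are left out, since the values name no genome build.

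The group means of all 8 arrays were estimated in limma 3.58.1 by lmFit and eBayes, under R 4.3.3, leaving 4 residual degrees of freedom and a prior of 3.124. All tests are two-sided. The adjustment is Benjamini-Hochberg over 22746 probe sets and a threshold of 0.05. In the deposited values the means of replicates 1 and 2 over the 4 groups differed by at most 7.5e-05 at every probe set. A replicate effect had thus been taken out, the p-values are too small, and the fit with a replicate block is given beside them. The labels do not say that numbers pair samples. Deviations of same-numbered arrays correlated at −0.29 between systemic and control leaves of the wild type. With the replicate effect taken out, these deviations cancel over the 4 groups, which makes their correlations negative on average. The value therefore cannot show whether numbers pair samples. Other settings tried were the wild-type arrays alone, median centring, cyclic loess, a filter at the 25th percentile of the mean level, an intensity-dependent prior, a 2-fold minimum and leaving out each array.

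The members and lists were chosen with earlier results of these data known. Of 138 genes in 11 pathway lists 23 were measured by name, and 44 families were taken from symbols in the annotation. The list of pectate lyases was added after values were seen. Named were the 20 largest increases and 20 largest decreases of named genes that passed with groups apart, the members of each list with the 3 largest increases and decreases that passed, and pathway members that did not pass, as values. The examples set beside dTLec, which also include TBL26, GTR1, TBL41 and CYP71B26, were chosen after their values were seen. On simulated data with 200 changed probe sets among 22746, the test called 97 of 100 at a log2 change of 1, 100 of 100 at a log2 change of 2, and 21 of 22546 unchanged. The simulated arrays were independent, and no replicate effect was taken out of them. These rates therefore do not carry over to the deposited values, where the p-values are too small. A search of promoters for motifs was not run.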

Additional observations from a re-analysis of the deposited data

Results flagged for a closer look

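The probe set 263443_at, which the annotation gives no gene, passed in the test of the difference between the genotypes' responses, the only probe set to do so as the values were deposited. It had 7.11 and 7.02 in wild-type systemic leaves, against 9.62 and 9.59 in wild-type control leaves, so that it fell by 2.54 ± 0.09 on the log2 scale (SE, n = 2 per group). In dTLec it had 8.72 and 8.65 in systemic leaves, against 9.15 and 9.35 in control leaves, a log2 fold change of −0.57. The replicates were close in all 4 groups, and the groups did not overlap in either genotype. The wild-type response minus the dTLec response was −1.97 ± 0.12 on the log2 scale, with an adjusted p of 0.0187 in limma. With the replicate block the adjusted p was 0.0849. With 1 array left out the difference ran from −2.07 to −1.88. Leaving out systemic replicate 1 or 2 of the wild type gave adjusted p of 0.156 and 0.207. Leaving out control replicate 1, systemic replicate 1 or systemic replicate 2 of dTLec gave 0.0906, 0.13 and 0.0605.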

How the results depend on the processing

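With the replicate block 1596 probe sets passed in wild-type systemic against control leaves, 891 higher and 705 lower. With a 2-fold minimum 619 passed. Leaving out 1 array at a time gave 806 to 2582 in all, 499 to 1296 higher and 307 to 1286 lower. Without systemic replicate 2 the counts were lowest in all 3. As deposited the calls split into 1344 higher and 1372 lower, while centring gave 1418 and 1170 and cyclic loess 1563 and 1053. The test of the wild-type minus the dTLec response passed 1 probe set. It passed 0 with the replicate block, 8 after centring, 4 with the 25th percentile filter, 6 with an intensity-dependent prior, and 0 to 5 with 1 array left out. Of 157 named genes and probe sets followed, no call was reversed in any setting run; some that did not pass crossed 0, such as PDF1.2 (−0.17 to 0.96 with 1 array left out). Calls lost numbered 29 with the replicate block, 25 with the wild-type arrays alone, 4 after centring, 9 after cyclic loess, 7 with the intensity-dependent prior and 59 without systemic replicate 2. Of the list counts, 604 of 840 over all settings stayed within 1.5 times the reported count. The planned search of promoter motifs was not run. Differences of dim probe sets are compressed, and the 2 arrays per group limit every value.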

Other observations

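Some of the largest changes lay in probe sets to which the annotation gives no gene. The probe set 264415_at had 10.13 and 10.32 in systemic leaves, against 4.78 and 3.80 in control leaves, and its log2 fold change of 5.93 ± 0.38 was the largest of all (adjusted p = 0.000845, limma). The probe set 264511_at had 10.21 and 10.39 in systemic leaves, against 5.61 and 4.85 in control leaves, a log2 fold change of 5.07 ± 0.28. In both, control replicate 1 was again the higher control array. The probe set 245325_at had 5.85 and 5.78 in systemic leaves, against 8.64 and 9.0 in control leaves, and its log2 fold change of −3.01 ± 0.18 was the largest decrease.

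Neighbouring genes on the chromosomes, by the gene table, gave 5813 pairs with both genes measured by name. In 1246 of them at least 1 gene passed and in 86 both did, of which 60 moved the same way (28 higher, 32 lower) and 26 in opposite ways. COR15B and COR15A rose by 1.58 and 3.07, JMT and AT1G19650 by 2.86 and 0.94, and AT3G51440 and AT3G51450 by 0.87 and 3.58. AT1G10585 and its neighbour AT1G10580 rose by 4.29 and 0.57. AT5G59670 and AT5G59680, both receptor kinase genes, had −0.97 and −1.62. AT1G23840 and AT1G23850 went in opposite directions, with −1.24 and 1.19. Neighbours that are copies of each other can share probes, and these counts carry no test.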
